A study of Homo sapiens with 12 samples.

Results

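The 52 genes described here encode the machinery with which a cell separates its chromosomes: mitotic kinesins, centromere and kinetochore proteins, the spindle checkpoint, mitotic kinases, anaphase regulators, cyclins, condensin, spindle assembly and cytokinesis factors. They were taken by gene symbol from a list of these functions, not by their values, and are 52 of the 28747 gene identifiers in the count table. For the account below they were placed in 9 groups by role. Of the 52 genes, 50 had counts. KIF15 and KIFC1 were listed at 0 in all 12 libraries, where a limit of 3 counts corresponds to between 0.111 and 0.182 CPM (counts scaled to a common library size), and they entered no test. Whether they lack RNA here, or were left without counts by the annotation or by multi-mapping of reads, is not known.

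The study sequenced polyA RNA of DU145, an established human prostate cancer cell line, after stable knockdown with a hairpin labelled shSigma. Cells had been transduced with lentiviral short hairpin RNA, either shSigma or a control hairpin (shCtrl), the knockdown line being selected with puromycin. Each line was grown as an adherent bulk culture or as tumor spheres, which form without attachment in serum-free medium with growth factors and enrich stem-like cells, and each of the 4 groups had 3 libraries described as independent replicates. The knockdown cells are thus 1 stable line, and the effect of the hairpin cannot be told apart from other differences between it and the control line. The knockdown effect below is the difference between these lines. Which of the study's hairpins it carried is not given in the sources used here, and culture medium and attachment change together between adherent cells and spheres. The libraries held 16472722 to 26957777 counts. The keratin genes KRT8 and KRT18 were at 202 to 516 CPM in all libraries.

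In a dividing cell these genes act in sequence. Cyclin B with CDK1 drives entry into mitosis, condensin and topoisomerase II compact the chromosomes, and kinetochores built on CENPA chromatin attach them to spindle microtubules that kinesins slide, depolymerize and crosslink. The spindle checkpoint holds back CDC20 and the anaphase-promoting complex (APC/C) until attachment is complete, after which separase is released, cyclin B is destroyed and the cell is cleaved. Most of the genes are transcribed in G2 and M phase. Their promoters are bound by the DREAM, B-MYB and FOXM1 complexes at a CHR element and by NF-Y at CCAAT boxes. The CHR was taken here as TTTGAA or TTCGAA. In bulk RNA, fewer cells in mitosis and less RNA per mitotic cell cannot be told apart.

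The promoters of 5 members are printed to show matches to these elements and the lack of a match. Each is the 150 bases before the RefSeq transcript start in GRCh38.p14, written 5′ to 3′ on the strand of the gene, and capitals mark the matches to a CHR or a CCAAT box in either orientation. The first 3 hold matches to both elements. CCNB1 holds CCAAT boxes but neither TTTGAA nor TTCGAA, and KIF2C holds no match to either element. Other forms of the CHR were not searched.
CCNB2, chr15:59104996-59105145, plus strand: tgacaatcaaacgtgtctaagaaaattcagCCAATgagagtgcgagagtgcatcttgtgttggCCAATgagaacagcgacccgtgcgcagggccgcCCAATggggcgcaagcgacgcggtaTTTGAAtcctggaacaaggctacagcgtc
CDC20, chr1:43358831-43358980, plus strand: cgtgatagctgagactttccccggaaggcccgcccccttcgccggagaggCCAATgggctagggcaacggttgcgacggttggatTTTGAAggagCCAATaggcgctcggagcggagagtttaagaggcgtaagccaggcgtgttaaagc
MKI67, chr10:128126424-128126573, minus strand: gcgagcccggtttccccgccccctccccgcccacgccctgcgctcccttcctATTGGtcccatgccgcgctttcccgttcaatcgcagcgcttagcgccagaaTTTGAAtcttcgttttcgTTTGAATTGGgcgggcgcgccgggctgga
CCNB1, chr5:69167000-69167149, plus strand: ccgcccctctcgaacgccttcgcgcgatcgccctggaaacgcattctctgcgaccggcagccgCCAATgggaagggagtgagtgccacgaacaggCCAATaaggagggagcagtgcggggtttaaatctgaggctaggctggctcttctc
KIF2C, chr1:44739687-44739836, plus strand: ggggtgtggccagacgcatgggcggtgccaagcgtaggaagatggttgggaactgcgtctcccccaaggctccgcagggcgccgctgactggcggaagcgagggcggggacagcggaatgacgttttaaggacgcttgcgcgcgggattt
RefSeq promoter windows of 300 bases, from 250 before to 50 after the start, were found for 45 of the 52 genes, 7 of which had a pair of windows. A CHR, searched as TTTGAA or TTCGAA on both strands (TTCGAA is its own reverse complement), was in 37 of these 52 windows, or 71.2%, against 16.4% of all 35116 windows. A CCAAT box on either strand was likewise in 71.2%, against 34.6% of all windows, and both elements were in 51.9%, against 6.38%. In MKI67 a CHR and a CCAAT box share bases. Windows of 35 DNA replication genes, expressed earlier in the cycle, held a CHR in 5.13% and a CCAAT box in 61.5% of 39 windows. By gene, 34 of the 45 had a CHR, 34 a CCAAT box, 26 both and 3 neither. A match to these letters is a description of the window and not a site of binding. The lack of a match does not show that a window has no such element.

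Levels of the mitotic genes were highest in adherent control cells. Together they took 0.919 to 0.968% of all counts in the adherent shCtrl libraries, 0.490 to 0.552% in adherent shSigma, 0.395 to 0.450% in shCtrl spheres and 0.375 to 0.400% in shSigma spheres. For 46 of the 49 members with more than a few counts, all 3 adherent shCtrl libraries lay above all 9 other libraries, and BUB3, INCENP and UBE2C were the exceptions. The share of all genes with this pattern was not counted, so the 46 cannot be set against a background. Group means were ordered as adherent shCtrl, adherent shSigma, shCtrl spheres, shSigma spheres for 25 members. For 12 others, among them KIF2C, CCNB1, CCNB2, CDK1 and PTTG1, the shCtrl spheres stood above adherent shSigma, and for 8, among them KIF14, CENPF, BUB3 and MKI67, the shSigma spheres stood above the shCtrl spheres. These orders were not tested as a whole, and the middle groups overlapped for many genes.

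Per length, in RPKM, which divides CPM by the kilobases of the union of exons, the members of adherent shCtrl cells had a median of 33.2 RPKM, against 4.79 RPKM for all genes tested. TOP2A, the topoisomerase that decatenates chromosomes, was at 166 ± 7.64 RPKM (mean ± SD, n = 3), and CCNB1 followed at 120 ± 8.49 RPKM. ANLN at 97.3 ± 3.22 RPKM and TPX2 at 93.3 ± 4.70 RPKM did not differ beyond their spread. PRC1 at 1.09 RPKM and SPC25 at 0.329 RPKM were the lowest of the genes with counts. SPC25 had 2 to 17 counts per library and passed the filter on low counts in the adherent comparison only through its shCtrl libraries.

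**Figure D1:**
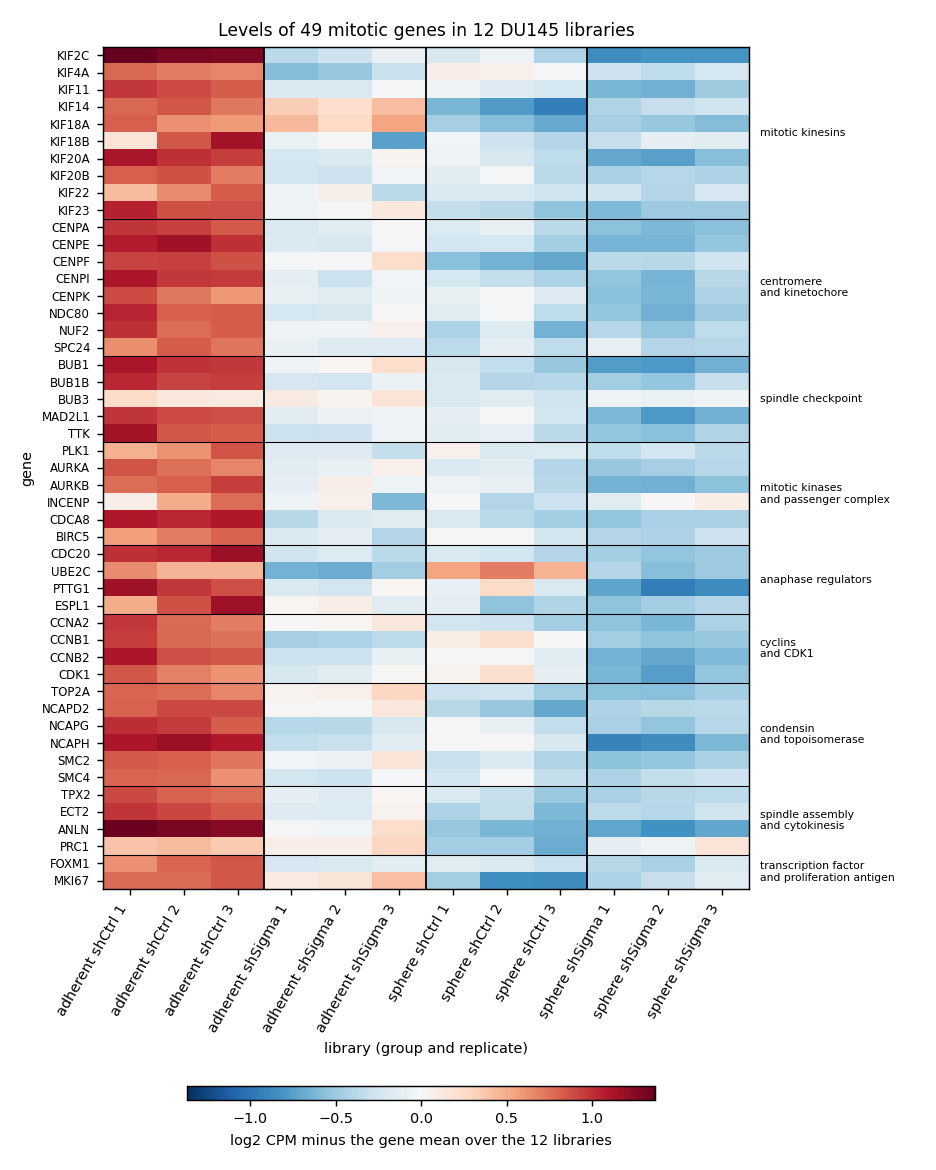
Heat map of 49 mitotic genes (rows, by role) in the 12 libraries (columns, by group and replicate). Color is log2 CPM minus the mean of that gene over the 12 libraries. The 3 adherent shCtrl libraries are the highest for 46 of the 49 genes, and UBE2C alone has its highest group mean in shCtrl tumor spheres. The share of all genes that were highest in the adherent shCtrl libraries was not counted.

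Within groups the libraries were not equal. The median coefficient of variation of the members was 6.34% in adherent shCtrl, 8.37% in adherent shSigma, 9.02% in shCtrl spheres and 5.04% in shSigma spheres. Many members shared an order of libraries. Adherent shCtrl replicate 1 was the highest of its group for 30 of 49 genes and adherent shSigma replicate 3 for 40. The shCtrl sphere replicate 3 was the lowest of its group for 44 and shSigma sphere replicate 3 the highest for 36. The shares over all genes were not counted. Adherent shSigma replicate 3 also stood apart over genes in general. Its chi-square per gene was 24.5 and 32.8 against replicates 1 and 2, which had 2.73 between them. Adherent shCtrl replicate 1 had 19.7 and 43.9 against replicates 2 and 3, which had 11.2 between them. In spheres replicate 3 did not stand apart in this way. KIF18B, a microtubule-depolymerizing kinesin, varied most, with 32.9, 52.4 and 64.1 CPM in adherent shCtrl libraries, a coefficient of variation of 31.7%. INCENP and ESPL1 were, like KIF18B, lowest in replicate 1 and highest in replicate 3 of that group.

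After knockdown with shSigma in adherent cells nearly the whole set was lower. In edgeR's quasi-likelihood test, with p-values adjusted over every gene tested by Benjamini and Hochberg's method and genes called at an adjusted p under 0.05, 46 of the 50 members tested were lower and 0 were higher after knockdown, whereas 27.7% of all genes tested were lower and 22.3% higher. Also by unadjusted p, and by DESeq2, 0 members were higher. A log2 fold change under -1 was reached by 25 members, against 6.13% of all genes. The median log2 fold change of the 50 was -1.004, with a range from -1.62 to -0.12, while the median of all genes was -0.014. For 48 members the 3 shSigma libraries lay below the 3 shCtrl libraries, against 27.8% of all genes, the exceptions being BUB3 and SPC25. BUB3, INCENP, PRC1 and SPC25 were not called. The calls of KIF18A and KIF18B each depended on single libraries: KIF18A at -0.32 lost its call without shCtrl replicate 1 or 2 or shSigma replicate 1 or 2 (adjusted p = 0.179, 0.124, 0.149 and 0.219), and KIF18B at -1.07 without shCtrl replicate 2 or 3 or shSigma replicate 1 or 2 (adjusted p = 0.106, 0.0728, 0.0901 and 0.0668).

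In tumor spheres the effect of shSigma knockdown was smaller and mixed. Of 49 members tested, 28 were lower, against 30.9% of all genes, and 5 were higher, against 30.2%. The median was -0.21, and all genes had a median of 0.0015. Only UBE2C passed a log2 fold change of -1, which 7.17% of all genes did. The shSigma libraries lay below the shCtrl libraries without overlap for 25 members, against 33.3% of all genes, above them for 5, against 33.5%, and overlapped them for 19. The 5 higher genes were KIF14, CENPF, BUB3, PRC1 and MKI67. The share of members called lower, 28 of 49, was thus nearer to the background than in adherent cells. Leaving out 1 library ended 10 of the 33 calls, those of CDC20, CCNA2, ANLN, PLK1, TOP2A, AURKA, KIF20B, SMC2, MKI67 and BUB3 (adjusted p between 0.0509 and 0.172). Each of the 6 libraries ended at least 1 of them, and the number of lower members ranged from 21 to 30. The other 23 calls held without any 1 library.

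**Figure D2:**
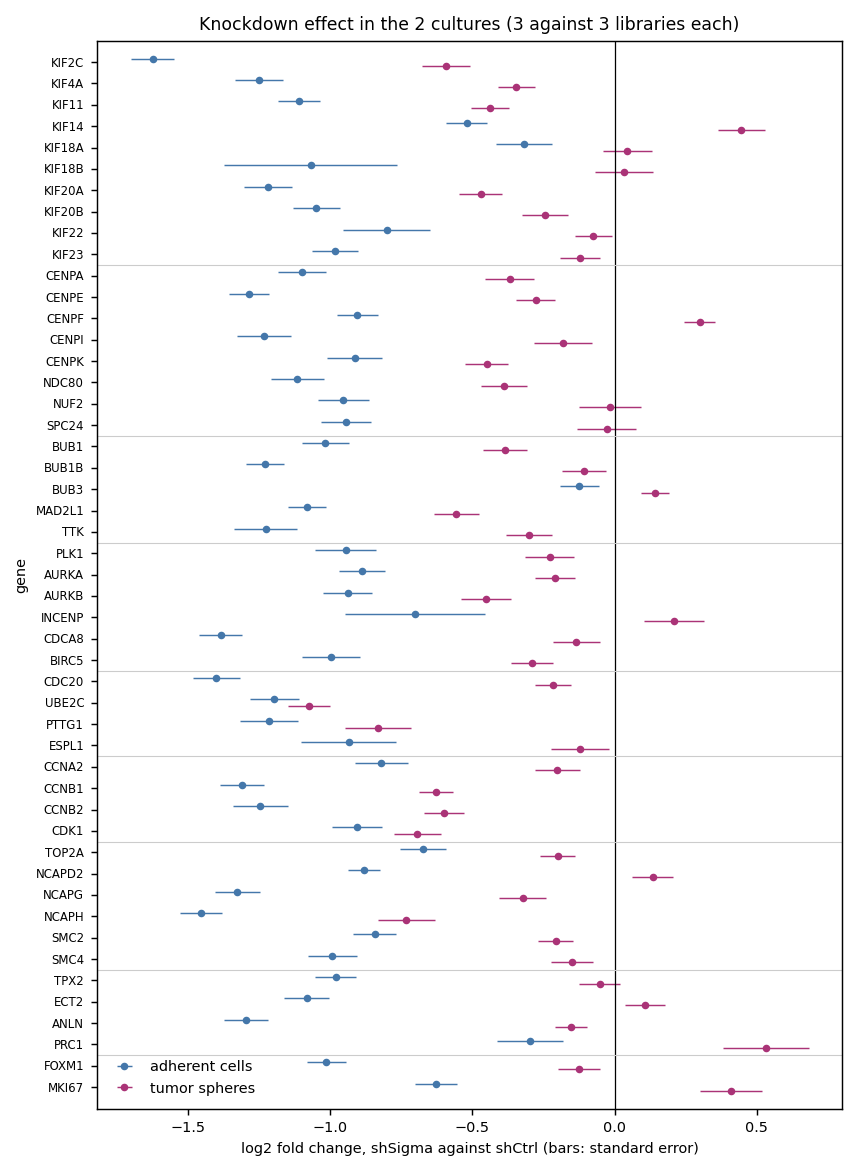
Log2 fold change of shSigma against shCtrl (horizontal axis) for 49 mitotic genes (vertical axis, by role) in adherent cells (blue) and tumor spheres (purple). Points are edgeR estimates from 3 against 3 libraries and bars are standard errors. The blue points lie between -1.62 and -0.12, and every purple point lies to the right of the blue point of its gene.

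The difference between the cultures was tested directly, in 1 model of all 12 libraries with a term for hairpin by culture, the interaction. The knockdown effect was more positive in spheres than in adherent cells for 44 of 50 members, against 12.7% of all genes, and more negative for 0, against 15.6%; by unadjusted p and by DESeq2 the latter count was also 0. The median difference was 0.75 on the log2 scale, against -0.034 for all genes. The 6 members without a call were KIF18A, SPC25, BUB3, UBE2C, PTTG1 and CDK1. UBE2C, the E2 ubiquitin-conjugating enzyme of the APC/C, fell by about the same amount in both cultures, with a difference of 0.059 ± 0.12 (log2 ± SE, adjusted p = 0.767). The calls of 3 members rested on single libraries. CENPK at 0.40 lost its call without adherent shSigma replicate 1 or 2, shCtrl sphere replicate 3 or shSigma sphere replicate 3 (adjusted p between 0.0501 and 0.0743). INCENP at 0.86 and KIF18B at 1.05 both lost theirs without adherent shCtrl replicate 2 or 3, adherent shSigma replicate 1, shCtrl sphere replicate 2 or 3 or shSigma sphere replicate 2 or 3, and KIF18B also without shSigma sphere replicate 1 (adjusted p between 0.0511 and 0.0910).

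Growth as spheres was itself accompanied by lower levels. In shCtrl cells, 48 of 50 members were lower in spheres than in adherent cells, against 26.3% of all genes, and 0 were higher, against 27.4%, also by unadjusted p and by DESeq2. A log2 fold change under -1 was reached by 35 members, against 4.96% of all genes, and the median was -1.08. In shSigma cells, 35 of 49 members were lower in spheres, against 25.2% of all genes, and 0 were higher, against 21.9%, with 1 at an unadjusted p under 0.05 and 0 by DESeq2. The member with the most positive shift was the chromokinesin KIF4A, at 0.20 (adjusted p = 0.0581), and it was called higher with DESeq2 size factors in edgeR, without the filter on low counts, relative to the 40 nearest genes and without adherent replicate 3 (adjusted p = 0.0469, 0.0419, 0.00792 and 0.00303). The median shift was -0.39, and 0 members reached -1, against 485 of all 13622 genes tested, so that 0 lay near the background. Without 1 library at a time the number lower ranged from 47 to 48 in shCtrl cells and from 28 to 38 in shSigma cells. INCENP lost its call in shCtrl cells without sphere replicate 2 (adjusted p = 0.0579), and in shSigma cells CDC20, KIF20B, BUB3, BUB1B, CENPI, ECT2 and TTK lost theirs without adherent replicate 1 or 2 or 1 of the 3 sphere replicates (adjusted p between 0.0586 and 0.157). The comparisons share groups of libraries: adherent shCtrl serves both the adherent knockdown and the shift of control spheres, so the deep falls in both rest in part on the same 3 libraries.

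**Figure D3:**
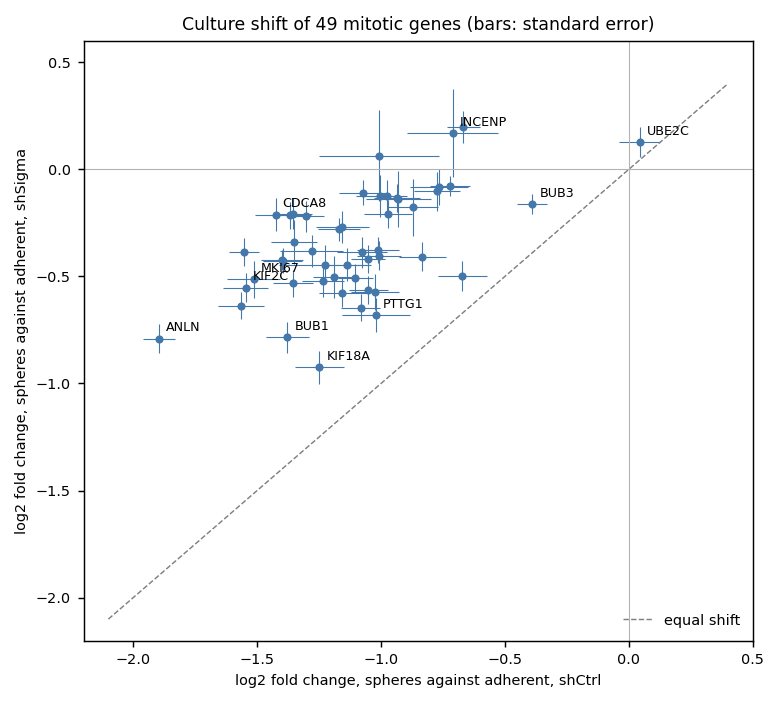
Log2 fold change of tumor spheres against adherent cells in shCtrl (horizontal axis) and in shSigma cells (vertical axis) for 49 mitotic genes, with standard errors as bars and the line of equal shift dashed. All points lie above the line, UBE2C closest to no change in shCtrl cells, and ANLN has the deepest shift in shCtrl cells at -1.90. Points above the line restate the difference between the knockdown effects of the cultures and are not a separate result.

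Of the kinesins, all 10 with counts were lower in adherent knockdown cells, against 27.7% of all genes. A log2 fold change of -1 was passed by 6 of them, against 6.13% of all genes. KIF2C, the kinetochore kinesin that depolymerizes microtubules, was at 173, 164 and 163 CPM in adherent shCtrl, 51.9, 54.98 and 62.97 in adherent shSigma, 58.1, 63.4 and 49.9 in shCtrl spheres and 37.2, 38.2 and 38.4 in shSigma spheres. The shSigma libraries were below the shCtrl libraries in both cultures without overlap, and the adherent shSigma and sphere shCtrl libraries overlapped. Its adherent change of -1.62 ± 0.076 (log2 ± SE, adjusted p = 8.16e-06) was the deepest of the set before its neighbors on the chromosome were considered. Relative to its 40 nearest genes it was -1.02. Many other members were then deeper, among them NCAPH at -1.58, UBE2C at -1.51, NCAPG at -1.37 and BIRC5 at -1.27. In spheres the change of KIF2C was -0.59 ± 0.083 (adjusted p = 7.43e-05). KIF11, the plus-end motor that pushes spindle poles apart, was at 224, 212 and 203 CPM in adherent shCtrl, 98.6, 98.6 and 113 in adherent shSigma, 110.1, 101 and 96.9 in shCtrl spheres and 74.2, 72.2 and 81.3 in shSigma spheres. It fell by 1.11 in adherent cells (adjusted p = 3.07e-05) and by 0.44 in spheres (adjusted p = 1.32e-04), again without overlap.

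KIF14, a kinesin of the midzone needed for cytokinesis, took another course. It was at 111, 115 and 105 CPM in adherent shCtrl, 80.6, 74.6 and 85.8 in adherent shSigma, 41.4, 37.2 and 33.2 in shCtrl spheres and 48.2, 51.4 and 52.8 in shSigma spheres. The 4 groups did not overlap, and the shSigma spheres lay above the shCtrl spheres. The knockdown effect was thus -0.52 ± 0.071 in adherent cells (adjusted p = 7.74e-04) and 0.45 ± 0.084 in spheres (adjusted p = 6.56e-04). KIF18A, which dampens chromosome oscillations, was at 25.3, 23.2 and 21.5 CPM in shCtrl and 25.2, 24.1 and 22.9 CPM in shSigma spheres, with a change of 0.045 (adjusted p = 0.667), and these groups overlapped.

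Of the 9 centromere and kinetochore genes, 8 were lower in adherent knockdown cells, against 27.7% of all genes. In spheres 4 of 8 tested were lower and CENPF was higher, against 30.9% and 30.2% of all genes. These sphere counts are too few to be read as a result about the group. CENPE, the kinesin that carries chromosomes to the spindle equator, was at 193, 204 and 184 CPM in adherent shCtrl, 80.4, 78.9 and 89.98 in adherent shSigma, 76.4, 77.8 and 66.5 in shCtrl spheres and 59.4, 59.2 and 63.9 in shSigma spheres. Its knockdown effect was -1.28 ± 0.072 in adherent cells (adjusted p = 1.65e-05) and -0.28 ± 0.07 in spheres (adjusted p = 0.00456), with no overlap in either. Relative to its 40 nearest genes the sphere effect was -0.16 and lost its call (adjusted p = 0.0738). CENPF, a large protein of the outer kinetochore, was at 478, 481 and 462 CPM in adherent shCtrl, 249, 249 and 297 in adherent shSigma, 169, 161 and 155 in shCtrl spheres and 195, 194 and 209 in shSigma spheres. After knockdown it was thus lower in adherent cells (-0.90 ± 0.073, adjusted p = 6.96e-05) and higher in spheres (0.30 ± 0.054, adjusted p = 5.06e-04). NDC80, which contacts the microtubule, had changes of -1.11 and -0.39 (adjusted p = 8.07e-05 and 0.00134), whereas its partner NUF2 changed by -0.95 in adherent cells (adjusted p = 1.31e-04) and had -0.016 in spheres (adjusted p = 0.908).

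In the spindle checkpoint, BUB1, BUB1B, MAD2L1 and TTK were lower in adherent knockdown cells and BUB3 was not called. BUB1, the kinase that recruits the checkpoint to kinetochores, was at 187, 171 and 169 CPM in adherent shCtrl, 82.95, 88.3 and 102 in adherent shSigma, 74.1, 68.6 and 60.4 in shCtrl spheres and 50.99, 50.05 and 54.9 in shSigma spheres. These 4 groups followed each other without overlap. MAD2L1, the protein that binds CDC20 in the active checkpoint, was at 115, 109 and 108 CPM in adherent shCtrl, 52.8, 55.3 and 56.1 in adherent shSigma, 53.3, 58.4 and 49.01 in shCtrl spheres and 38.3, 33.9 and 37.3 in shSigma spheres. It fell by 1.08 (adjusted p = 2.38e-05) and by 0.56 (adjusted p = 7.44e-05), without overlap. BUB3, the adaptor of both BUB1 and BUB1B, was at 290.3, 269 and 266 CPM in adherent shCtrl, 265, 251 and 276 in adherent shSigma, 210.5, 218 and 202 in shCtrl spheres and 232, 229.7 and 236 in shSigma spheres. The adherent groups overlapped (-0.12 ± 0.068, adjusted p = 0.172), and in spheres BUB3 was slightly higher after knockdown (0.14 ± 0.049, adjusted p = 0.0239). That call was lost without shCtrl replicate 3 or shSigma replicate 2 or 3 (adjusted p = 0.0878, 0.0571 and 0.0840), and in the sphere shift of shSigma cells BUB3 lost its call of -0.16 without adherent replicate 1 or any 1 of the 3 sphere replicates (adjusted p between 0.0586 and 0.0878).

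Of the mitotic kinases and the chromosomal passenger complex, 5 of 6 were lower in adherent knockdown cells, against 27.7% of all genes. AURKB, the kinase of the passenger complex that corrects wrong attachments, was at 80.2, 82.8 and 90.6 CPM in adherent shCtrl, 42.8, 50.3 and 44.9 in adherent shSigma, 44.95, 43.7 and 36.2 in shCtrl spheres and 29.9, 29.7 and 31.8 in shSigma spheres, with knockdown effects of -0.94 and -0.45 (adjusted p = 1.28e-04 and 7.60e-04). The shSigma libraries were lower in both cultures without overlap. CDCA8 (borealin), another subunit of that complex, was at 80.8, 77.6 and 81.2 CPM in adherent shCtrl, 29.2, 32.97 and 33.8 in adherent shSigma, 32.7, 29.2 and 27.4 in shCtrl spheres and 25.9, 27.8 and 27.8 in shSigma spheres. It fell by 1.38 in adherent cells (adjusted p = 1.36e-05), its sphere groups overlapped (-0.13, adjusted p = 0.180), and its interaction of 1.19 ± 0.12 was called (adjusted p = 5.03e-06). INCENP, the scaffold of the complex, had values of 45.3, 60.3 and 72.4 CPM in adherent shCtrl and 40.9, 44.7 and 27.7 CPM in adherent shSigma libraries (adjusted p = 0.0567).

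The anaphase regulators fell in adherent cells, all 4 of them, against 27.7% of all genes called lower. CDC20, the activator of the APC/C in mitosis, was at 165, 169 and 187 CPM in adherent shCtrl, 68.8, 72.7 and 64.4 in adherent shSigma, 71.7, 69.2 and 62.9 in shCtrl spheres and 60.1, 57.04 and 58.6 in shSigma spheres. The adherent change of -1.40 ± 0.083 (adjusted p = 2.01e-05) separated the groups, and the adherent shSigma libraries overlapped the control spheres. The sphere change of -0.22 (adjusted p = 0.0120) lost its call without shCtrl replicate 1 or shSigma replicate 2 (adjusted p = 0.0523 and 0.0537), and the shift of shSigma spheres, -0.21 (adjusted p = 0.0442), without adherent replicate 1 or 2 or any 1 of the sphere replicates (adjusted p between 0.0911 and 0.157). PTTG1 (securin), the inhibitor of separase, was at 181, 158 and 149 CPM in adherent shCtrl, 70.01, 67.98 and 82.3 in adherent shSigma, 74.4, 96.6 and 69.6 in shCtrl spheres and 48.9, 41.9 and 44.4 in shSigma spheres. It was lower after knockdown without overlap in both cultures, by 1.21 and 0.83 (adjusted p = 8.21e-05 and 1.84e-04).

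UBE2C was singled out after its values were seen. It was at 89.9, 79.3 and 78.9 CPM in adherent shCtrl, 36.6, 35.7 and 41.1 in adherent shSigma, 83.5, 92.8 and 79.5 in shCtrl spheres and 43.2, 38.1 and 40.4 in shSigma spheres. All 6 shCtrl libraries lay above all 6 shSigma libraries, and within each hairpin the cultures overlapped. Its knockdown effects were -1.20 ± 0.087 in adherent cells (adjusted p = 4.40e-05) and -1.07 ± 0.073 in spheres (adjusted p = 1.87e-07). The sphere shift was 0.043 ± 0.084 in shCtrl cells (adjusted p = 0.687) and 0.13 ± 0.071 in shSigma cells (adjusted p = 0.175), and relative to the 40 nearest genes both shifts became negative calls, at -0.46 (adjusted p = 0.00256) and -0.25 (adjusted p = 0.0231).

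**Figure D4:**
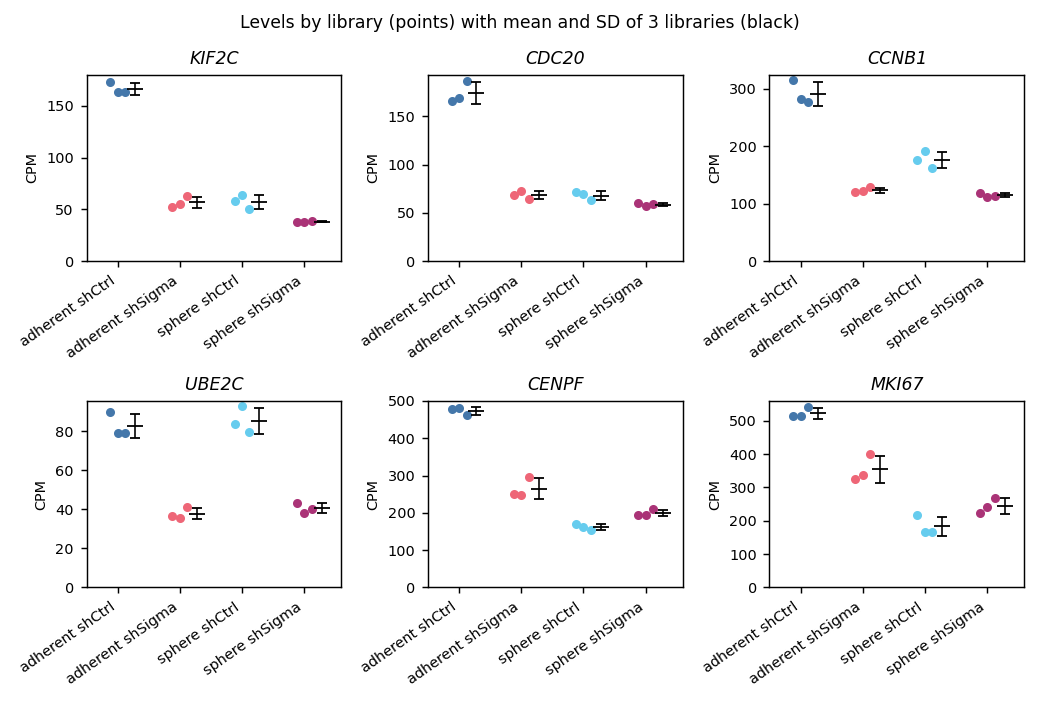
CPM (vertical axis, from 0) of 6 mitotic genes in each of the 4 groups (horizontal axis), with the 3 libraries as points and mean and SD in black. KIF2C, CDC20 and CCNB1 are highest in adherent shCtrl, UBE2C overlaps between the shCtrl groups of both cultures, and CENPF and MKI67 are higher in shSigma than in shCtrl spheres.

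Cyclins and CDK1 had the deepest median knockdown effect of the 9 groups in spheres, -0.61. All 4 genes were lower there, against 30.9% of all genes. CCNB1, the main cyclin of mitotic entry, was at 315, 282 and 277 CPM in adherent shCtrl, 119, 121 and 128 in adherent shSigma, 176, 191 and 163 in shCtrl spheres and 118, 112 and 114 in shSigma spheres. Both shSigma groups sat between 112 and 128 CPM, and the sphere shift of shSigma cells was -0.079 (adjusted p = 0.191) against -0.72 in shCtrl cells (adjusted p = 1.86e-04). CCNB2 was at 106, 90.9 and 89.2 CPM in adherent shCtrl, 40.3, 40.2 and 46.00 in adherent shSigma, 49.6, 48.7 and 44.3 in shCtrl spheres and 31.4, 30.3 and 32.4 in shSigma spheres, with knockdown effects of -1.24 and -0.60 (adjusted p = 5.62e-05 and 1.64e-05). CDK1, the kinase they activate, fell by 0.91 in adherent cells and 0.69 in spheres (adjusted p = 1.64e-04 and 3.77e-05), and its interaction of 0.15 ± 0.14 was not called (adjusted p = 0.461).

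All 6 condensin and topoisomerase genes were lower in adherent knockdown cells, against 27.7% of all genes. NCAPH, the kleisin subunit of condensin I, was at 58.01, 60.8 and 57.7 CPM in adherent shCtrl, 21.3, 21.9 and 24.2 in adherent shSigma, 27.1, 27.1 and 23.2 in shCtrl spheres and 14.3, 14.9 and 17.5 in shSigma spheres. It fell without overlap in both cultures, by 1.45 (adjusted p = 1.07e-05) and 0.73 (adjusted p = 6.20e-05). NCAPD2, a HEAT-repeat subunit of the same complex, was at 289, 308 and 308 CPM in adherent shCtrl, 167, 165 and 182 in adherent shSigma, 126, 115 and 102 in shCtrl spheres and 123, 126 and 128 in shSigma spheres. It fell by 0.88 in adherent cells (adjusted p = 2.63e-05), while its sphere groups overlapped (0.13, adjusted p = 0.124). The subunits of condensin I thus had sphere values from -0.73 for NCAPH to 0.13 for NCAPD2, with SMC4 at -0.15 (adjusted p = 0.0987).

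Among the genes of spindle assembly and cytokinesis, ANLN (anillin), which scaffolds the contractile ring, had the deepest sphere shift of control cells. It was at 604, 579.7 and 566 CPM in adherent shCtrl, 235, 232 and 280.1 in adherent shSigma, 166, 154 and 151 in shCtrl spheres and 145, 134 and 145 in shSigma spheres, and the shift was -1.90 ± 0.064 in shCtrl (adjusted p = 5.10e-07) and -0.79 ± 0.068 in shSigma cells (adjusted p = 8.92e-05). Its knockdown effect was -1.30 in adherent cells (adjusted p = 2.17e-05) and -0.15 in spheres (adjusted p = 0.0348), the latter lost without shCtrl replicate 1 or shSigma replicate 1, 2 or 3 (adjusted p = 0.151, 0.0566, 0.159 and 0.0631). ECT2, the exchange factor that activates RhoA at the cleavage furrow, was at 429.8, 413 and 389.7 CPM in adherent shCtrl, 193, 191 and 226 in adherent shSigma, 162, 174 and 142 in shCtrl spheres and 169.8, 166 and 181 in shSigma spheres. It fell by 1.08 in adherent cells (adjusted p = 4.29e-05) and overlapped in spheres (0.11, adjusted p = 0.198); its shift in shSigma cells of -0.21 was lost without sphere replicate 1 or 2 (adjusted p = 0.0806 and 0.0872).

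PRC1, which bundles midzone microtubules, stood at a far lower level than the other genes of this role group. It was at 6.03, 6.22 and 5.88 CPM in adherent shCtrl, 4.90, 4.91 and 5.59 in adherent shSigma, 3.34, 3.31 and 2.87 in shCtrl spheres and 4.18, 4.40 and 5.19 in shSigma spheres, and was higher in spheres after knockdown (0.53 ± 0.15, adjusted p = 0.00928). The adherent groups did not overlap, but the change of -0.30 was not called (adjusted p = 0.0660). PRC1 is among the 15 members whose exons overlap another gene of the table, 13 of them on the opposite strand, and whether counting used strand is not given, so counts of these genes are less certain. On its own strand PRC1 also overlaps an annotated gene that is not in the table. How reads in that overlap were counted is not given.

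FOXM1, a transcription factor of G2 and M genes, and MKI67, the proliferation antigen Ki-67 that coats mitotic chromosomes, differed in spheres. FOXM1 was at 107, 120.4 and 125 CPM in adherent shCtrl, 59.3, 60.04 and 62.8 in adherent shSigma, 62.1, 60.6 and 56.5 in shCtrl spheres and 53.2, 51.1 and 60.4 in shSigma spheres, falling by 1.01 in adherent cells (adjusted p = 3.24e-05) and overlapping in spheres (-0.13, adjusted p = 0.157). MKI67 was at 513, 513 and 540.4 CPM in adherent shCtrl, 324, 338 and 399 in adherent shSigma, 216, 167 and 166 in shCtrl spheres and 222, 241 and 269 in shSigma spheres. It fell by 0.63 in adherent cells (adjusted p = 3.34e-04) and was higher by 0.41 ± 0.11 in spheres (adjusted p = 0.00884), a call lost without shCtrl replicate 2 (0.34, adjusted p = 0.0752).

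Neighboring genes moved with some members. The 40 nearest tested genes of MKI67 had a median knockdown effect of 0.47 in spheres and those of BUB3, also on chromosome 10, of 0.31. Relative to these medians MKI67 had -0.061 (adjusted p = 0.654) and BUB3 -0.16 (adjusted p = 0.0131), and PRC1 had 0.18 (adjusted p = 0.323). The median of the 40 genes was entered as a fixed value. P-values relative to it therefore leave out the spread among these genes, and calls gained or reversed this way are less certain. Among the members lower in spheres after knockdown, CENPE, CDC20, TTK, ANLN and AURKA lost their calls in the same way, at -0.16, -0.11, -0.064, -0.12 and -0.15 (adjusted p = 0.0738, 0.161, 0.528, 0.0976 and 0.0783). KIF22 and FOXM1, which had no call without this correction, were called lower, at -0.18 and -0.24 (adjusted p = 0.0318 and 0.0158), and ECT2 higher, at 0.23 (adjusted p = 0.0128). In the shift of shSigma spheres KIF20B, BUB3, TTK and CDC20 lost their calls of lower (adjusted p = 0.452, 0.966, 0.399 and 0.168), and KIF22, SPC24, CDCA8 and UBE2C gained one (adjusted p = 0.0274, 0.00753, 0.0237 and 0.0231). KIF14 at 0.31 and CENPF at 0.46, both on chromosome 1, stayed higher (adjusted p = 0.00811 and 2.22e-05). In adherent cells the neighbors of KIF2C had a median of -0.61 and those of CDCA8 of -0.43, and relative to them KIF2C fell by 1.02 (adjusted p = 5.42e-05) and CDCA8 by 0.95 (adjusted p = 6.44e-05). BUB3, INCENP and PRC1 then also were called lower in adherent cells, at -0.38, -0.95 and -0.87 (adjusted p = 0.00312, 0.0221 and 7.85e-04). The part of chromosome copy number in these regional shifts was not tested.

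Members with and without matches to the promoter elements overlapped in the size of the knockdown effect. In adherent knockdown cells the 32 tested members with a CHR had a median of -0.99, from -1.40 to -0.30, and the 11 without had -1.22, from -1.62 to -0.82. With a CCAAT box the median of 33 was -0.95 and without it that of 10 was -1.23. In spheres the 31 with a CHR had a median of -0.15 and the 11 without -0.45. KIF14, CENPF, PRC1 and MKI67, which were higher in spheres after knockdown, each held a CHR and a CCAAT box. So did 26 of the 45 genes with windows. BUB3, also higher, had no window. Relative to their 40 nearest genes MKI67 and PRC1 were not called. No test was run on these groups.

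The other genes of the mitotic pathway were lower in a smaller share. Of 110 tested genes in 7 lists, 74 were lower and 3 higher in adherent knockdown cells, against 27.7% and 22.3% of all genes, with a median of -0.55. Of 109 in spheres 43 were lower and 24 higher, against 30.9% and 30.2% of all genes, with a median of -0.078, so the sphere counts were near the background. The counts of each list below are read against the same shares. Inner kinetochore genes were lower in adherent cells in 12 of 15 cases, for example CENPN at -1.05, and outer kinetochore genes in 9 of 13, among them ZWINT at -1.46 (adjusted p = 1.07e-04 and 2.34e-05). SGO1 (shugoshin), the protector of centromeric cohesion, changed by -1.71 (adjusted p = 1.92e-05), and 10 of 14 condensin and cohesin genes were lower. Spindle and centrosome genes were lower in 22 of 26 cases, with the centriole duplication factor STIL at -1.48 (adjusted p = 8.16e-06). The subunits and regulators of the APC/C had the smallest share lower of the 7 lists, with 6 of 17 lower in adherent cells and a median of -0.22, and in spheres 1 lower and 5 higher, ANAPC11 among them by 0.58 (adjusted p = 6.22e-05). The 6 lower in adherent cells and the 5 higher in spheres were near the shares of all genes, 27.7% and 30.2%. Of 10 mitotic entry genes, adherent knockdown cells had 5 lower and 1 higher, GTSE1 being at -1.72, and CDC25B, a phosphatase that activates CDK1, was higher by 0.58 in spheres (adjusted p = 2.82e-05 and 7.79e-06). Of 15 DREAM and B-MYB regulators 10 were lower and 1 higher in adherent cells, with E2F7 at -1.74, and the DREAM subunit LIN52 fell by 0.69 in spheres (adjusted p = 8.16e-06 and 3.71e-06). In spheres the cohesin gene RAD21 fell by 0.70, SPDL1 by 0.77, DLGAP5 by 0.78 and CENPU by 0.52 (adjusted p = 2.78e-07, 2.93e-06, 1.62e-06 and 4.59e-04).

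DNA replication genes give the comparison with an earlier phase of the cycle. In adherent knockdown cells 29 of 35 were lower and 0 higher, against 27.7% and 22.3% of all genes, with a median of -0.98 and ORC1 lowest in p at -1.92 (adjusted p = 6.13e-06). In spheres 22 were lower and 4 higher, against 30.9% and 30.2%, with a median of -0.29, and GINS2, a subunit of the replicative helicase, fell by 1.13 (adjusted p = 2.31e-07). The replication genes thus had an adherent median close to that of the mitotic genes, -0.98 against -1.004. Their shift from adherent cells to spheres was smaller, with 27 of 35 lower, against 26.3% of all genes, and a median of -0.57 in shCtrl cells against -1.08 for the mitotic genes. In shSigma cells 5 were lower and 6 higher, both below the shares of all genes, 25.2% and 21.9%, and the median was -0.025 against -0.39. These medians were not tested against each other.

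Markers of cell state moved with the groups too, and the epithelial genes did not move one way. Of the 4 with counts enough to test, 2 were lower and 2 higher in adherent knockdown cells, against 27.7% and 22.3% of all genes. In spheres 4 were lower, against 30.9% of all genes. KRT8 was at 202 to 273 CPM in adherent shCtrl against 356 to 466 CPM in shSigma libraries, and KRT18 at 307 to 329 against 486 to 516 CPM. In spheres KRT8 was at 358 to 429 against 310.4 to 349 CPM and KRT18 at 370.5 to 403 against 281 to 296 CPM. EPCAM and CDH1 were lower in shSigma libraries of both cultures, EPCAM at 213 to 264 CPM in adherent shCtrl against 29.6 to 32.4 CPM in shSigma and at 578 to 662 against 60.7 to 63.6 CPM in spheres. CDH1 was at 26.8 to 26.9 against 10.7 to 13.9 CPM in adherent cells and at 678 to 770 against 23.9 to 30.1 CPM in spheres. Of the 5 markers of other cell types, COL1A1 reached 3.22 to 7.73 CPM in adherent libraries, 18.7 to 24.9 CPM in shCtrl and 9.85 to 14.2 CPM in shSigma spheres, ACTA2 at most 2.07 CPM, PECAM1 at most 0.338 CPM, PTPRC at most 0.212 CPM and CHGA was at 0. The luminal prostate genes KLK3, KLK2 and TMPRSS2 were at most 1.06 CPM. The basal keratin KRT5 was at most 0.0512 CPM. Their part in the levels of the mitotic genes was not tested.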

How the data were processed

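RNA-seq was performed in DU145 cells, with 4 groups of 3 libraries taken from the sample labels. Per the labels, 800 ng of total RNA went into each directional library and 75 nt single-end reads were produced. The authors aligned and quantified the reads with STAR 2.6.1c on GRCh38.p12 (versions per the submitters' processing notes), deposited raw counts per Ensembl gene and tested them with DESeq2. The annotation, the strand setting and the handling of multi-mapping reads are not given in the sources used here. Symbols, exons and coordinates were taken from GENCODE release 44, which named 26153 of the 28747 identifiers.

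The deposited counts were analyzed with edgeR 4.0.16 in R 4.3.3 to obtain CPM, RPKM and log2 fold changes, using TMM factors, filterByExpr at a minimum count of 10 and the robust quasi-likelihood test. Tests were two-sided, and p-values were adjusted by Benjamini and Hochberg's method over every gene in the fit. Each comparison was fitted on its own 6 libraries, and the interaction on all 12. With 3 against 3 libraries an exact permutation test cannot give a p below 0.1, so none was run. P-values measure the spread between these libraries. Pairs of replicates differed by more than counting noise, with a chi-square per gene of 2.73 to 43.9. Limits for counts of 0 were set at 3 counts and cover counting error only.

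The members and gene lists were chosen with earlier results of these data known. Values in every library are given for the 2 members of each role group with the smallest summed ranks of p over the 4 comparisons of groups and for members called opposite to most of their group. The targeted gene and some markers are not reported here. From each list of other genes, the gene with the smallest p in each knockdown comparison is named. UBE2C and other members were named with their values in view. The alternatives tried were DESeq2 1.42.0, edgeR with size factors from DESeq2 or upper-quartile scaling, no filter, a minimum of 10 counts in each library, a joint fit of the 4 groups, a replicate block, an adjusted p under 0.01, an absolute log2 fold change over 1, change relative to the 40 nearest genes, and each library left out. The procedure was tested on simulated data.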

Additional observations from a re-analysis of the deposited data

Results flagged for a closer look

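The effect of shSigma knockdown differed between the cultures for most of the mitotic genes, by the interaction term of the edgeR model on 12 libraries, with p-values adjusted over every gene tested. The effect was more positive in tumor spheres than in adherent cells for 44 of the 50 members tested, against 12.7% of all genes. The difference, as log2 fold change in spheres minus that in adherent cells, was 0.97 for KIF2C, 0.61 for KIF11 and 0.90 for KIF14 among the kinesins. At the kinetochore and checkpoint it was 0.94 for CENPE, 1.14 for CENPF, 0.57 for BUB1 and 0.46 for MAD2L1. In the passenger complex it was 0.43 for AURKB and 1.19 for CDCA8, and for the mitotic activator CDC20 it was 1.13. The cyclins CCNB1 and CCNB2 had 0.62 and 0.58, and the condensin subunits NCAPD2 and NCAPH had 0.95 and 0.66. Cytokinesis genes had 1.13 for ECT2, 1.08 for ANLN and 0.77 for PRC1, and FOXM1 and MKI67 had 0.83 and 0.97. Groups of 3 libraries are too small for a test of single outlying libraries.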

How the results depend on the processing

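Counts of called members stayed within 1.5 times of their value except as follows. With an absolute log2 fold change over 1 added, 25 members were lower in adherent knockdown cells, 1 (UBE2C) lower and 0 higher in sphere knockdown, 0 lower in spheres of shSigma cells, and 7 more positive in the interaction. Relative to the 40 nearest genes, 3 members were higher in sphere knockdown, KIF14, CENPF and ECT2, and this change was not computed for the interaction. In spheres of shSigma cells 1 member, KIF4A, was higher with DESeq2 size factors in edgeR, without a filter, relative to the 40 nearest genes, and without adherent shSigma replicate 3. Leaving out 1 library at a time gave 44 to 47 lower members in adherent knockdown, 21 to 30 lower and 4 to 7 higher in sphere knockdown, 47 to 48 lower in control spheres, 28 to 38 lower and 0 to 1 higher in spheres of shSigma cells, and 41 to 46 more positive in the interaction. The replicate numbers did not pair the samples, since deviations from the group means correlated between same-numbered libraries at -0.82 to 0.38. Between libraries of different groups and numbers they correlated at -0.70 to 0.79. Adherent shCtrl replicate 1 with adherent shSigma replicate 3 had 0.79, and adherent shCtrl replicate 3 with adherent shSigma replicate 2 had 0.73. No fit included this shared deviation, and its source was not tested. With the replicate number as a block, 44 members were lower in adherent knockdown, 26 lower and 4 higher in sphere knockdown, 48 lower in control spheres, 34 lower in spheres of shSigma cells and 41 more positive in the interaction. Of the log2 fold changes of single members under all alternatives, 26 reversed, and among the members concerned only MKI67 and BUB3 were called in the comparison concerned. Relative to the 40 nearest genes the sphere knockdown value became -0.062 for KIF18B, 0.16 for SPC24, -0.16 for BUB3 and -0.061 for MKI67, the control sphere shift -0.46 for UBE2C, and the shift of shSigma spheres -0.15 for KIF18B, -0.12 for INCENP, -0.25 for UBE2C and 0.026 for NCAPG. Leaving out 1 library, sphere knockdown ranged from -0.0035 to 0.11 for KIF18A, -0.038 to 0.14 for KIF18B, -0.11 to 0.10 for NUF2, -0.12 to 0.047 for SPC24, -0.22 to 0.0053 for ESPL1 and -0.12 to 0.023 for TPX2. The control sphere shift of UBE2C ranged from -0.044 to 0.068, the shift of shSigma spheres from -0.15 to 0.21 for KIF18B and -0.027 to 0.32 for INCENP, and the interaction from -0.29 to 0.77 for SPC25, which had few counts. The cause was not tested.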
